A study of Mus musculus with 22 samples.

Results

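Collagens are the main structural proteins of the extracellular matrix, and the genes described here are the collagen alpha-chain genes of the mouse. They were chosen by name: a protein-coding gene was taken if its symbol is Col, a number, the letter a and a number, which gave 44 of the 53342 genes in the count tables. The study measured RNA by stranded mRNA sequencing in 22 libraries from mice with pancreatic tumors, with or without the gene for the microRNA miR-21. Total counts per library ran from 24547650 to 31118113. There were 5 cell lines and 8 tumors of the genotype labelled miR21 KO, and 5 lines and 4 tumors labelled WT, all from Bl6 mice and none of them treated. WT here means wild type for miR-21, not a healthy pancreas or healthy cells: both genotypes are of tumor-bearing mice, and recombined K-Ras and p53 alleles were genotyped in the lines of both. Which promoter or Cre drives that recombination is not given in the sources used here. The lines were grown out of dissociated tumors, passaged at least 8 times to remove fibroblasts, and used between passages 10 and 14 in 5% serum. They are taken here as cultured cancer cells, and whether any other cells remained in them was not tested. The tumor libraries came from snap-frozen pieces and hold the cancer cells together with the other cells of a tumor. From 5 animals, 3 WT and 2 KO, both a line and a tumor were sequenced. The microRNA gene itself, Mir21a, had 0 counts in all 22 libraries, so these mRNA libraries do not check the genotype labels.

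Alpha chains wind into the collagen triple helix, and different chains build different structures. Fibrillar collagens (types I, III and V among them) form the banded fibers of scar and tumor stroma and are made mostly by fibroblasts, while type IV forms the sheet of the basement membrane under epithelia and vessels. Pancreatic ductal tumors are known for a dense, collagen-rich stroma, and the miR-29 family is a well-known repressor of collagen mRNAs. By class, the 44 genes hold 11 fibrillar chains, 8 of basement membranes and their neighbors (type IV, Col15a1, Col18a1), 6 beaded-filament chains (type VI), 9 fibril-associated chains, 3 short chains (Col8a1, Col8a2, Col10a1), 3 transmembrane chains, 2 that anchor epithelia (Col7a1, Col17a1) and 2 others.

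The sequences below show what microRNA pairing these genes offer, because the knockout removes a microRNA. The mature sequences are from RefSeq (GRCm38.p6), with bases 2 to 8, the seed, in capitals. The 3 members of the miR-29 family share 1 seed and miR-21a-5p has another.
miR-21a-5p: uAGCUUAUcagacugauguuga
miR-29a-3p: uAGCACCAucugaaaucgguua
miR-29b-3p: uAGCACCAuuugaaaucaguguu
miR-29c-3p: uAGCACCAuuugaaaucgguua

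A match to the miR-21 seed (ATAAGCT, on the mRNA strand) was present in the annotated 3′ UTR of 1 of 44 collagen genes (2.27%), Col12a1, against 7.22% of the 20897 genes with a 3′ UTR in the same annotation. A match to the miR-29 seed (TGGTGCT) was present in 25 of 44 (56.82%), and 11 of them (25% of the 44) held at least 2, against 13.14% and 2.03% of all genes. The median 3′ UTR was 1032.5 bases in collagens and 968 in all genes. The sites shown are the single miR-21 match and a miR-29 match of 4 of the 6 chains that dominate the counts below. Capitals mark the seed match and, where present, the A that follows it. Coordinates are of the capitals in mm10.
Col12a1, miR-21, chr9:79600871-79600878, minus strand: ggaggcgcctaATAAGCTActaaccaa
Col1a1, miR-29, chr11:94952538-94952545, plus strand: gaaggaatttcTGGTGCTAtagaagct
Col3a1, miR-29, chr1:45348982-45348989, plus strand: aaatgtctcaaTGGTGCTAtaataaat
Col4a1, miR-29, chr8:11199761-11199768, minus strand: ccgtcacaacaTGGTGCTActcccccc
Col4a2, miR-29, chr8:11448359-11448365, plus strand: gaaggccacgtTGGTGCTtatccttc
A match is a description of letters and not a measured site. The other chains of those 6, Col1a2 and Col18a1, held none in the UTR of the transcript read here.

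Promoters from RefSeq (GRCm38.p6, 250 bases before and 50 after each start) were on hand for 35 of the 44 genes, 38 windows in all. Col4a1 and Col4a2 are shown because their genes lie head to head: they overlap by 22 bases at their starts on chromosome 8, on opposite strands, so the 2 windows share bases. Col1a2 and Col3a1 are shown as abundant fibrillar chains of the tumors that were low or at 0 in the lines. Capitals mark 3 motifs searched on both strands: the TATA box TATAAA, the CCAAT box with those letters, and the GC box GGGCGG.
Col4a1, chr8:11312777-11313076, minus strand: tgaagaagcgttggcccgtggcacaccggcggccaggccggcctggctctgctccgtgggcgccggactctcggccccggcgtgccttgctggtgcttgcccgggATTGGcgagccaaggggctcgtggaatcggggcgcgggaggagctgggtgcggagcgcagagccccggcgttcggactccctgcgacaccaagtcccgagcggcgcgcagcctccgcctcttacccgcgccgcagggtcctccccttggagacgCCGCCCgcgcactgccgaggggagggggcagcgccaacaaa
Col4a2, chr8:11312555-11312854, plus strand: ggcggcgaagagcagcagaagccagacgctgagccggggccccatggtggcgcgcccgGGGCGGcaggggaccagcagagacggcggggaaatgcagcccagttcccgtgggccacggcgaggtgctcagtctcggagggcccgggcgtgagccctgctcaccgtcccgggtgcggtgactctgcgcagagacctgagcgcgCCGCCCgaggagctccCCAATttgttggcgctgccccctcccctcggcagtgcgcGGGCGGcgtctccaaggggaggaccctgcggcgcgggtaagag
Col1a2, chr6:4505368-4505667, plus strand: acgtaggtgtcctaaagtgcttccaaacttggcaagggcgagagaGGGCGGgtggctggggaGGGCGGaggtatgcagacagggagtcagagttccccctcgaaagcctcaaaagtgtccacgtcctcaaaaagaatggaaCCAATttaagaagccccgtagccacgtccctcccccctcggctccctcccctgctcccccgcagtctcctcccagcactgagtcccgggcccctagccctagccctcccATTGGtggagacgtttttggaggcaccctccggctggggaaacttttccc
Col3a1, chr1:45311288-45311587, plus strand: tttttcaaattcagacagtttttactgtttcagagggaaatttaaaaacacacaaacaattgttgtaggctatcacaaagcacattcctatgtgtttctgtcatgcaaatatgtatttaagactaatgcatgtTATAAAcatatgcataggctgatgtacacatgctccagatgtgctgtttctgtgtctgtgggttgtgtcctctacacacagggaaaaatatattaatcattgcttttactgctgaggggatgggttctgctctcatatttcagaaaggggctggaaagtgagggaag
The GC box was in 60.53% of the 38 collagen windows and 35.66% of the 32851 windows of the same length for all genes. The CCAAT box was in 34.21% against 37.41% and the TATA box in 13.16% against 13.62%. The median GC content was 59.83% against 52.67%.

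Levels are given in CPM, the counts of a gene relative to the library total after TMM scaling over all 22 libraries. Collagen reads made up 0.130% to 0.240% of all counts in the lines and 0.511% to 1.68% in the tumors. In the KO lines 7 of the 44 genes had a mean of at least 10 CPM and 11 had no count at all. In the WT lines these numbers were 7 and 7. In the tumors 24 (KO) and 22 (WT) genes reached 10 CPM and none was without a count.

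**Figure D1:**
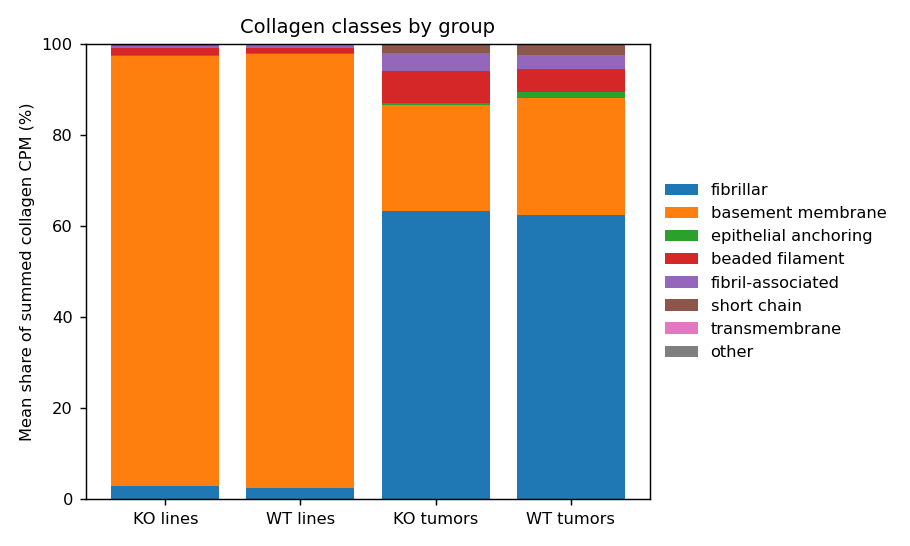
Mean share of each collagen class in the summed collagen CPM (y axis, percent) in the 4 groups (x axis). Basement membrane chains fill 94.36% and 95.27% of the KO and WT lines, and fibrillar chains 63.30% and 62.47% of the KO and WT tumors.

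The lines expressed almost only basement membrane chains. These held 94.36% ± 3.65 (SD, n = 5) of summed collagen CPM in KO lines and 95.27% ± 2.25 (n = 5) in WT lines, and Col4a1, Col4a2 and Col18a1 alone held 91.89% and 92.79%. In the tumors the fibrillar chains held 63.30% ± 7.99 (n = 8, KO) and 62.47% ± 8.26 (n = 4, WT), and Col1a1, Col1a2 and Col3a1 alone 53.52% and 53.21%. The same 3 genes held 0.161% and 0.183% in the lines. Per kilobase of mRNA, the highest mean levels in KO lines were Col18a1 at 136.9 CPM per kb, Col4a1 at 103.3 and Col4a2 at 57.07. In KO tumors they were Col1a1 at 334.4, Col3a1 at 329.6 and Col1a2 at 288.0, with Col4a1 next at 130.1. In WT tumors Col1a1, Col3a1 and Col1a2 led as well, with Col18a1 next at 129.3.

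**Figure D2:**
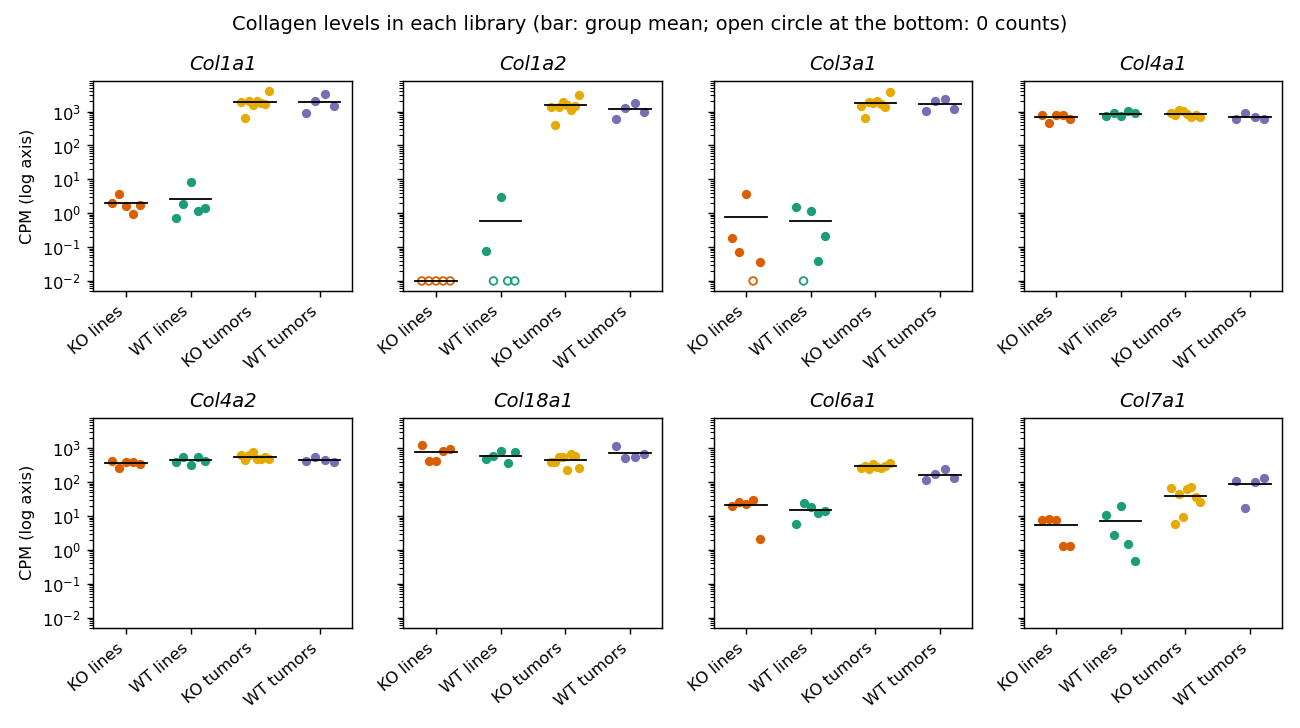
CPM (log axis) of 8 collagens in each library, by group (x axis). Points are libraries, the bar is the group mean and open circles are libraries with 0 counts. Col1a1, Col1a2 and Col3a1 lie above 400 CPM in all 12 tumors and under 9 CPM in all 10 lines, while Col4a1 and Col18a1 overlap between tumors and lines of each genotype and Col4a2 does so in WT only.

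Whole tumors were compared with lines of the same genotype to show which collagens are present in the tissue beyond the cultured cancer cells. In bulk RNA, fewer cells of a type and less RNA per cell cannot be told apart, and neither can a change caused by culture. Of 39 collagens tested, 33 were higher and 1 was lower in WT tumors than in WT lines, and 34 were higher and 1 lower in KO tumors than in KO lines (edgeR quasi-likelihood test, adjusted p under 0.05 over 18662 genes). Of all genes tested, 28.0% were called higher and 18.5% lower in the WT comparison, and 34.2% and 22.9% in the KO comparison. The groups did not overlap, with every tumor above every line, for 31 collagens in each comparison, against 20.7% (WT) and 20.5% (KO) of all genes. The median log2 fold change over the collagens tested was 5.08 (WT) and 5.35 (KO), or 4.12 and 4.18 with genes at 0 counts in the lines set at their lower bound, against 0.13 and 0.17 over all genes. The all-gene median is itself moved by scaling, to 0.21 and 0.28 with DESeq2-type (RLE) factors and 0.23 and 0.30 with upper-quartile factors.

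**Figure D3:**
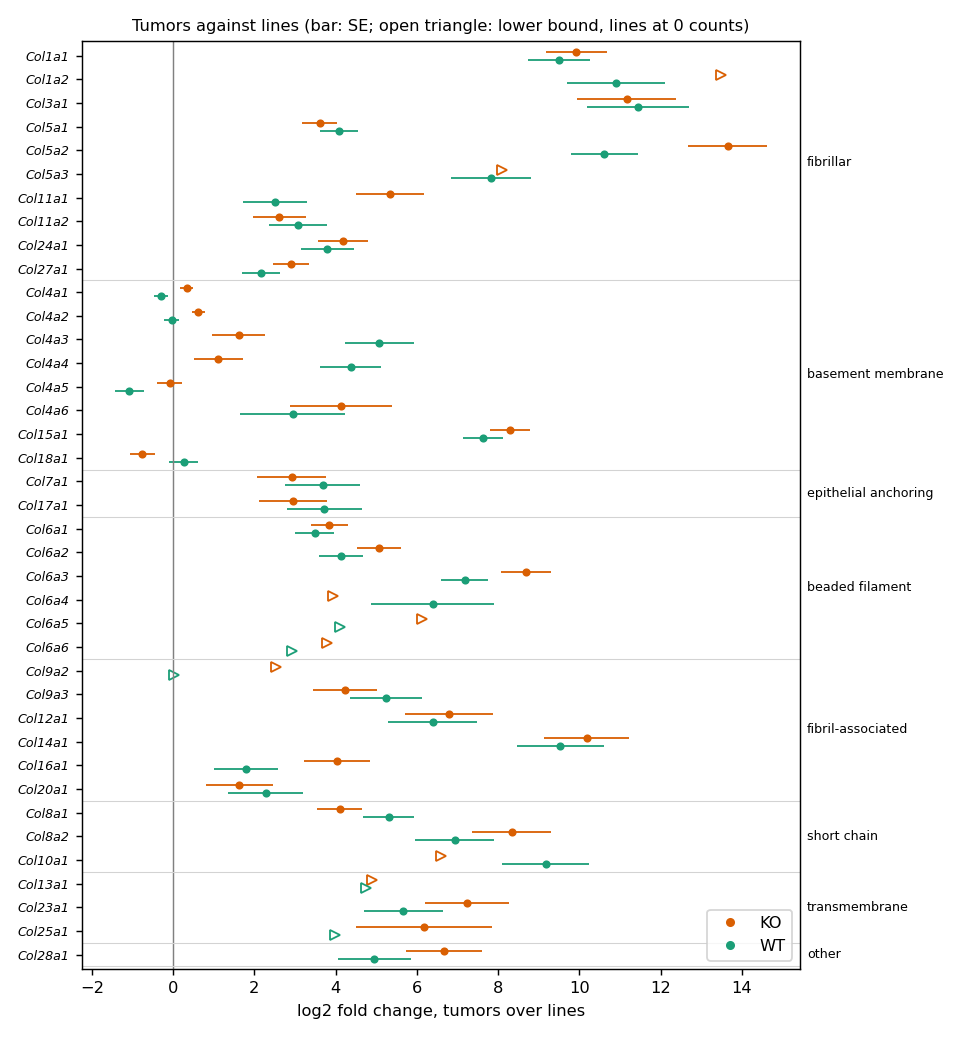
log2 fold change of tumors over lines (x axis) for the 39 tested collagens (y axis, by class), KO and WT apart. Bars are standard errors and open triangles are lower bounds for genes with 0 counts in all lines of the genotype. The fibrillar chains all lie right of 2, and Col4a1, Col4a2, Col4a5 and Col18a1 lie between -1.08 and 0.62. Of these, Col4a5 was called lower in WT, and in KO Col18a1 was called lower and Col4a2 higher.

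All 10 fibrillar chains tested were higher in tumors of both genotypes. Col1a1, the main chain of type I collagen, was at 1.96, 3.75, 1.69, 0.980 and 1.74 CPM in KO lines 1 to 5 and at 0.742, 1.9, 8.09, 1.16 and 1.38 in WT lines 1 to 5. It was at 653 (lowest), 1863 (median) and 4113 (highest) in the 8 KO tumors, and at 940, 1997, 3246 and 1458 in WT tumors 1 to 4. Every tumor lay far above every line, the lowest tumor being KO tumor 2, and WT line 3 was the highest line. The log2 fold change was 9.49 ± 0.76 (SE; adjusted p = 1.7e-08) in WT and 9.93 ± 0.76 (6.1e-09) in KO by edgeR. Without WT line 3 the WT value was 10.53.

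Col1a2, the partner chain that joins Col1a1 in type I collagen, had 0 counts in all 5 KO lines and in WT lines 2, 4 and 5. WT line 1 held 0.0742 CPM and WT line 3 held 2.94 CPM. It was at 407, 1390 and 3157 CPM (lowest, median, highest) in KO tumors and at 597, 1311, 1756 and 965 in WT tumors 1 to 4. Against the limit of 3 counts per library, KO tumors were at least 11530-fold higher (log2 of at least 13.49). In WT the log2 fold change was 10.90 ± 1.21 (adjusted p = 3.6e-06, edgeR). Its size rests on WT line 3, which held 73 of the 75 reads of the WT lines: without it the value was 15.53, set against 2 reads. Lines and tumors did not overlap.

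Col3a1, the chain of type III collagen that runs with type I in stroma, reached 3.68 CPM in KO line 3 and 1.52 in WT line 1, and was at most 1.13 in the other lines. It was at 665, 1737 and 3755 CPM in the KO tumors and 1049, 2111, 2340 and 1171 in WT tumors 1 to 4. The log2 fold changes were 11.46 ± 1.26 (WT, adjusted p = 8.5e-07) and 11.17 ± 1.22 (KO, 4.4e-07). Without KO line 3, which held 96 of the 104 reads of the KO lines, the KO value was 14.5, and without WT line 1 the WT value was 12.21. Col5a2, a type V chain that sits inside type I fibrils, rose from 25 reads over the 5 WT lines and 3 over the 5 KO lines to 323 ± 98.0 and 348 ± 101 CPM. All 25 WT reads were in WT line 3. Without that line the WT log2 fold change of Col5a2 went from 10.62 to 16.14, set against lines at 0 counts. Col5a1, the partner of Col5a2, was already present in the lines, at 15.8 ± 10.2 (WT) and 25.9 ± 17.6 CPM (KO), and rose by 4.09 ± 0.47 and 3.61 ± 0.43 on the log2 scale. Col5a3 was at 0 counts in all KO lines and at least 274.9-fold higher in KO tumors. Col27a1, a fibrillar chain of cartilage and other tissues, was also present in lines (27.3 ± 10.8 CPM in WT, 22 ± 8.1 in KO) and had the smallest fibrillar change in WT, 2.17 ± 0.46.

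The 2 type I chains were compared per kilobase of mRNA. Col1a1 stood to Col1a2 at 1.21 ± 0.235 (SD, n = 8) in KO tumors and 1.46 ± 0.143 (n = 4) in WT tumors, with a range of 0.741 to 1.47 and 1.36 to 1.67. Col1a1 stood to Col3a1 at 1.02 ± 0.124 and 1.05 ± 0.222. These ratios come from the same libraries and are not independent of the levels.

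The basement membrane class was split. Col4a1, the common chain of type IV, was at 779, 451, 775, 795 and 616 CPM in KO lines 1 to 5 and at 753, 930, 734, 1016 and 889 in WT lines 1 to 5. It was at 691, 831 and 1086 (lowest, median, highest) in KO tumors and at 591, 894, 706 and 622 in WT tumors 1 to 4. All 4 groups overlapped, and the log2 difference of tumors over lines was -0.30 ± 0.18 (adjusted p = 0.18) in WT and 0.33 ± 0.15 (0.067) in KO. The KO value passed the threshold under other scalings, for example 0.44 (adjusted p = 0.020) with RLE factors, and was -0.07 in the 5 animals that gave both materials, both genotypes together.

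Col4a2, its partner, was at 429, 267, 406, 397 and 343 CPM in KO lines 1 to 5 and 407, 561, 320, 569 and 436 in WT lines 1 to 5. It was at 438, 525 and 777 in KO tumors and 412, 539, 446 and 395 in WT tumors 1 to 4. Every KO tumor lay above every KO line, and the KO tumor excess was 0.62 ± 0.16 (adjusted p = 0.0033, edgeR), whereas WT was at -0.03 ± 0.19 (0.91). With the animal as a block, in the 5 animals with both a line and a tumor and both genotypes together, the value was 0.05 (adjusted p = 0.82). Because Col4a1 and Col4a2 overlap by 22 bases on opposite strands, and the strand setting of the counting is not given in the sources used here, a few reads of one may count for the other. The per-kilobase ratio of Col4a1 to Col4a2 was 1.80 ± 0.115 and 1.88 ± 0.242 in KO and WT lines and 1.501 ± 0.166 and 1.52 ± 0.0900 in KO and WT tumors.

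Col18a1, a basement membrane chain whose end fragment is endostatin, was at 1226, 427, 426, 811 and 939 CPM in KO lines 1 to 5 and 474, 600, 813, 364 and 769 in WT lines 1 to 5. It was at 224, 469 and 666 in KO tumors and 1163, 512, 551 and 668 in WT tumors 1 to 4. KO tumors were lower than KO lines by edgeR (-0.76 ± 0.30, adjusted p = 0.038), although the groups overlapped, and WT was at 0.26 ± 0.36 (0.58). Without KO line 1 the KO value was -0.52 (adjusted p = 0.17), and with the animal as a block in the 5 paired animals of both genotypes it was -0.21 (0.69). Leaving out KO lines 4 or 5 or KO tumors 1, 2, 5 or 8 also took it above the threshold, at adjusted p of 0.055 to 0.095.

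Col4a5, an X-linked type IV chain, was the lower call in WT, at 50.0 ± 27.9 CPM in lines and 23.6 ± 5.54 in tumors (-1.08 ± 0.36, adjusted p = 0.018). Without WT line 3, the highest at 93.0 CPM, it was -0.73 (0.070), and without WT tumor 3 it was -0.97 (0.054). Col15a1, a chain of the zone beneath basement membranes, differed from these: it rose from 0.715 ± 0.316 and 0.409 ± 0.233 CPM in WT and KO lines to 142.5 ± 36.8 and 131.0 ± 59.3 in tumors (log2 7.63 ± 0.49 and 8.30 ± 0.50). Col4a3 rose in both genotypes, by 5.08 ± 0.85 (WT) and 1.61 ± 0.65 (KO), and Col4a4 rose in WT by 4.37 ± 0.75, with tumor means of 1.05 to 3.24 CPM for Col4a4. Col4a3 shares exon bases with an opposite-strand transcript whose counts equal 106.608% of its own, so its value is uncertain.

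The type VI chains, which form beaded filaments around cells and fibers, were higher in tumors for all 6 members in both genotypes. Col6a1 rose by 3.48 ± 0.48 (WT, adjusted p = 1.2e-05) and 3.85 ± 0.46 (KO, 1.3e-06), from 15.0 ± 6.99 and 20.5 ± 10.9 CPM in lines to 167.5 ± 61.0 and 295.0 ± 48.4 in tumors. Col6a3 rose by 7.18 ± 0.57 and 8.68 ± 0.62. Col6a5 had no count in any line and was at least 69.45-fold higher in KO tumors.

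Both epithelial anchoring chains were higher in tumors at low to moderate levels. Col7a1, the anchoring fibril chain under stratified epithelia, rose by 3.68 ± 0.92 (WT, adjusted p = 0.0031) and 2.91 ± 0.84 (KO, 0.0060), with KO tumor 2 at 5.85 CPM and WT tumor 2 at 16.8 inside the range of the lines of their genotype. Without WT line 3 the WT value was 4.575. Col17a1, the hemidesmosome chain of basal keratinocytes, was under 0.14 CPM in all lines and between 0.135 and 1.54 CPM in all tumors, and rose by 3.73 ± 0.93 (adjusted p = 0.0030) and 2.95 ± 0.83 (0.0052). Only 189 reads in all 22 libraries fell on Col17a1, 5 of them in the WT lines and 7 in the KO lines. The WT value was 4.59 without WT line 3 and 2.60 without WT tumor 3.

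Among the fibril-associated chains 5 of 6 tested were higher in each genotype, and all 3 short chains and all 3 transmembrane chains tested were higher in both. Col12a1, the gene with the miR-21 seed match, rose by 6.39 ± 1.09 (WT) and 6.79 ± 1.07 (KO), to 175 ± 142 and 215 ± 66.7 CPM. Col14a1, which decorates type I fibrils, rose from 9 reads over the 5 WT lines and 12 over the 5 KO lines to 57.0 ± 37.1 and 111.7 ± 105.3 CPM. Col8a2 rose from 6 and 7 reads to 6.44 ± 3.07 and 18.5 ± 15.6 CPM, and Col10a1, a marker of hypertrophic cartilage, was at least 96.58-fold higher in KO tumors, though its exon bases overlap an opposite-strand gene whose counts equal 166.296% of its own. Col13a1, a transmembrane chain, had no count in any line and was at least 26.73-fold (WT) and 29.61-fold (KO) higher. Col16a1 was called in KO (4.04 ± 0.81) and not in WT (1.80 ± 0.79, adjusted p = 0.067), where WT line 3 held 37.6 CPM, by edgeR. DESeq2 called it in WT too (1.898, adjusted p = 0.0277).

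In the 5 animals with a line and a tumor, the tumor lay above its own line in 5 of 5 for Col1a1 (log2 difference 8.33 to 11.37), Col1a2 (12.0 to 14.58), Col3a1 (9.36 to 14.84) and Col6a1 (2.78 to 6.73). For Col4a1 it did so in 2 of 5 (-0.53 to 0.82), for Col18a1 in 2 of 5 and for Col4a5 in 0 of 5. These differences are of log2 CPM with a prior count of 2. Among the lines of these animals, KO lines 1 and 5 and WT lines 2 and 4 had 0 counts of Col1a2. The size of the Col1a2 differences is therefore set by the prior count and is not a measured fold. The prior count also bears on Col3a1, which had a median of 0.0700 CPM in the KO lines.

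Markers of other cells moved with these results, and their counts stand against 28.0% (WT) and 34.2% (KO) of all genes called higher and 18.5% and 22.9% called lower. Of 16 fibroblast markers, 15 were called higher in tumors in both comparisons, and the other was called lower in WT. Their summed level was 253 to 772 CPM in the lines, mostly Fbln2 (means of 412 and 368 CPM in KO and WT lines), and 1042 to 5789 CPM in the tumors. Of the 16, Dcn, Lum and Dpt had 0 counts in all 10 lines, and 12 (KO lines) and 13 (WT lines) had a mean under 1 CPM. Pdgfra, Fbln1 and Fbln2 were above that in lines of both genotypes, and Acta2 in KO lines. The marker called lower in WT was at a log2 fold change of -1.67, with every WT tumor below every WT line. Endothelium markers (6 of 6) and pericyte markers (5 of 5) were called higher in both as well. So were 5 (WT) and 6 (KO) of 6 macrophage markers, 4 of 4 leukocyte markers in each, 9 and 11 of 12 acinar markers, 2 and 3 of 5 mesothelium markers, 2 of 3 tested adipocyte markers in each, 2 and 3 of 3 tested Schwann markers, 2 of 3 tested cartilage markers in each and 5 and 2 of 5 tested skeletal muscle markers. Of 10 epithelial markers 4 were higher in each and 1 (WT) and 5 (KO) lower. The 1 mesothelium marker that was lower in each was Krt19, which is on the epithelial list too and is counted there as well. The part of these cells in the collagen differences was not tested.

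Genes that act on collagen were counted against the same shares of all genes, 28.0% and 34.2% higher and 18.5% and 22.9% lower. Of 15 genes that modify chains, 3 were higher and 2 lower in each comparison, both below those shares: Plod1, a lysyl hydroxylase, rose by 1.33 ± 0.20 (WT) and 1.57 ± 0.18 (KO), and P4hb, a subunit of prolyl 4-hydroxylase, fell by 0.61 (SE 0.14, adjusted p = 0.0012) in KO. Of 6 crosslinking genes, 4 (WT) and 5 (KO) were higher and 1 lower in each; Lox, which crosslinks fibrils, rose from at most 0.684 CPM in any line to 192.8 ± 109.8 (WT) and 227.1 ± 83.0 (KO) in tumors, and Loxl4 fell by 2.34 in WT. Of 8 breakdown genes 6 were higher in each, among them Mmp2, a gelatinase, from at most 0.145 CPM in any line to 87.4 ± 14.3 and 196.4 ± 99.2. Of 9 tested receptor genes 5 were higher and 1 lower in each, with the collagen receptor Ddr2 at 5.90 ± 0.72 and 8.02 ± 0.77. Of 9 tested genes that cleave propeptides, 4 (WT) and 5 (KO) were higher and 1 lower in each. Of 8 folding and export genes, 4 (WT) and 2 (KO) were higher, with Sparc, a collagen-binding matrix protein, at 2.96 ± 0.69 and 5.93 ± 0.75. The KO count of that list was below the share of all genes called higher. In the crosslinking, receptor and propeptide lists, the 1 lower gene was below the shares of all genes called lower.

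The knockout was compared with wild type to ask whether collagen expression differs without miR-21. In tumors, none of 39 tested collagens was called higher or lower (edgeR quasi-likelihood test with Benjamini-Hochberg adjustment over 18125 genes; 0.0110% of all genes were called higher and 0 lower). At an unadjusted p under 0.05, 9 collagens were higher and 3 lower, against 8.34% and 8.39% of all genes. DESeq2 called 4 higher, Col6a1 (0.78, adjusted p = 0.0132), Col11a1 (2.14, 0.0191), Col16a1 (1.03, 0.0241) and Col9a2 (2.53, 0.0265), and 1 lower, Col5a3 (-1.37, 0.0165); Col11a1 and Col5a3 are named after their values were seen. The same tool called 550 genes higher and 333 lower in these tumors, of the same 18125 genes, 238 of which had no adjusted p. No collagen separated the groups, against 1.12% of all genes higher and 0.789% lower. The median log2 fold change of the collagens was 0.23 against 0.01 for all genes.

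**Figure D4:**
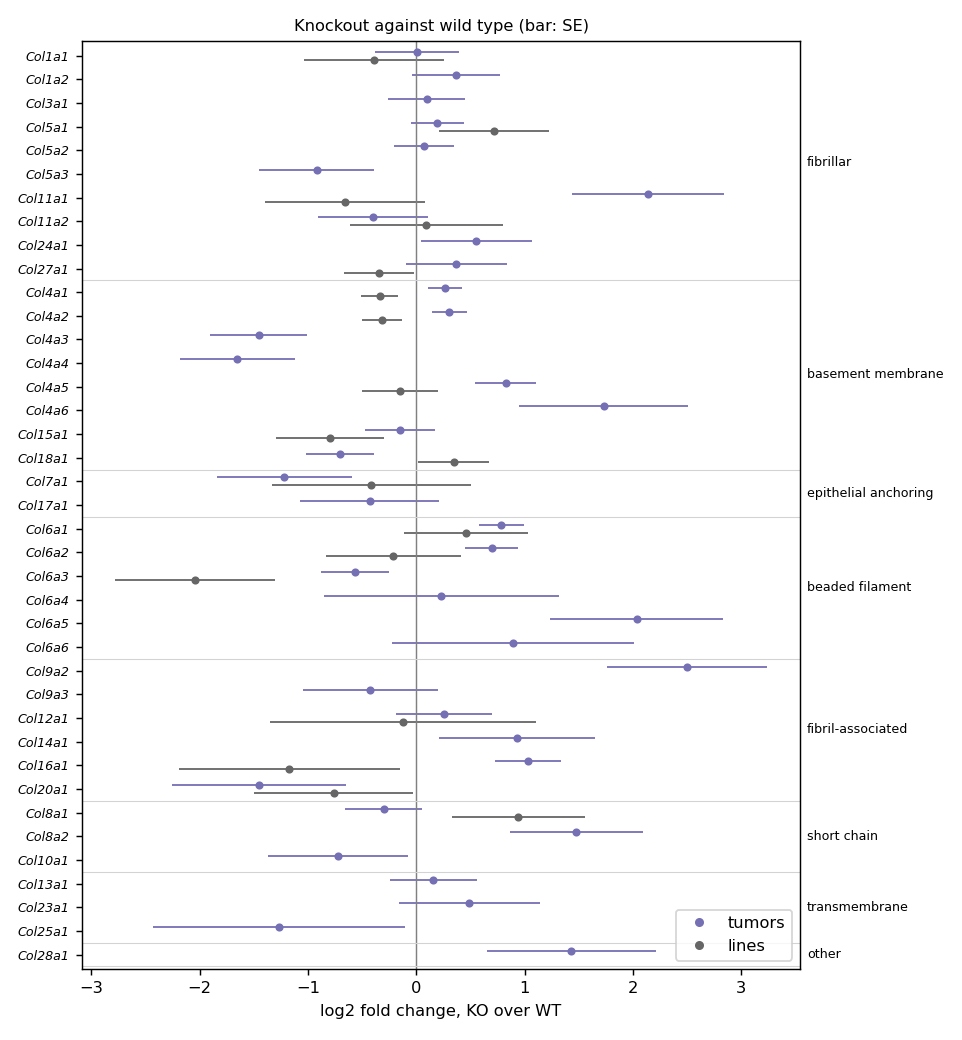
log2 fold change of KO over WT (x axis) with standard errors for the tested collagens (y axis, by class), in tumors and in lines. No gene passed the threshold in either; Col1a1, Col1a2 and Col3a1 lie within 0.4 of 0 in tumors.

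The fibrillar chains that dominate the tumors were close in the 2 genotypes. Col1a1 averaged 1983 ± 968 CPM (SD, n = 8) in KO tumors and 1910 ± 989 (n = 4) in WT tumors, a log2 difference of 0.01 ± 0.39 (adjusted p = 0.99, edgeR). Col1a2 was at 0.37 ± 0.41 (0.69) and Col3a1 at 0.10 ± 0.35 (0.92). A p above the threshold does not show that they are equal.

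The smallest p belonged to Col6a1. It was at 238, 291 and 380 CPM (lowest, median, highest) in the KO tumors and at 114, 169, 252 and 135 in WT tumors 1 to 4, with WT tumor 3 inside the KO range. The log2 difference was 0.78 ± 0.21 (adjusted p = 0.14). Col16a1, a fibril-associated chain, was at 34.2, 58.7 and 105 in KO tumors and at 16.0, 40.7, 37.5 and 30.8 in WT tumors 1 to 4 (1.03 ± 0.30, adjusted p = 0.15). KO tumor 2 was the lowest KO tumor and lay inside the WT range. Col9a2, a cartilage chain, was at 2.50 ± 0.74 (0.16) with all tumors under 1.7 CPM.

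Col4a3 and Col4a4, type IV chains of specialized membranes whose genes lie 71 bases apart on opposite strands, had the smallest p of the chains that were lower in KO tumors. Col4a3 averaged 0.756 ± 0.354 CPM in KO and 2.04 ± 1.30 in WT tumors (-1.46 ± 0.45, adjusted p = 0.17), and Col4a4 1.05 ± 0.568 and 3.24 ± 2.54 (-1.65 ± 0.53, 0.18). WT tumor 4 was the highest for both, at 3.71 and 6.77 CPM. Col7a1 was at 5.85, 40.4 and 70.1 CPM in KO tumors and at 112, 16.8, 101 and 132 in WT tumors 1 to 4 (-1.22 ± 0.62, adjusted p = 0.34). Col17a1 was at -0.43 ± 0.64 (0.78), Col4a1 at 0.27 ± 0.16 (0.41) and Col4a2 at 0.30 ± 0.16 (0.36). Col18a1 was on the other side of 0, at -0.71 ± 0.31 (adjusted p = 0.28, unadjusted p = 0.0432 by edgeR). Col12a1, with the miR-21 seed match, was at 0.26 ± 0.45 (0.81).

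Cell markers were also compared between the tumor genotypes. The 16 fibroblast markers had a median log2 difference of 1.22, 13 of them above 0, with a summed level of 1042 to 5789 CPM in KO and 1304 to 2416 in WT. The 10 epithelial markers had a median of -0.52, with 4022 to 8505 CPM in KO and 6502 to 14430 in WT. The 12 acinar markers were at a median of 1.88, and the 5 tested skeletal muscle markers, all below 0, at -5.61, with a sum of 1276 CPM in WT tumor 3. None of the markers of these 4 lists passed the adjusted threshold (edgeR). At an unadjusted p under 0.05, 6 fibroblast markers were higher and 1 lower, 4 epithelial markers were lower, 1 acinar marker was higher and 5 muscle markers were lower, against 8.34% of all genes higher and 8.39% lower. The lower fibroblast marker was Fap (-1.15). Fap is also on the list of breakdown genes and is counted in both lists throughout. For the acinar list, 1 of 12 is near the share of all genes that were higher. In other lists, the 5 mesothelium markers had a median of 1.27, with 1 higher and 1 lower at that p. Among 5 pericyte markers 1 was lower, and among 3 tested Schwann markers 1 was higher. Endothelium, macrophage, leukocyte, adipocyte and cartilage markers had 0 on either side. No fibroblast, epithelial, acinar or muscle marker was at 0 in all tumors of a genotype. Their part in the collagen values was not tested.

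Of the genes that act on collagen, none was called in tumors by edgeR, and at an unadjusted p under 0.05 6 of 55 tested were higher and 6 lower, near the 8.34% and 8.39% of all genes. The lists were not alike. Of 8 breakdown genes, 4 were lower (Fap -1.15, Mmp13 -1.81, Mmp9 -1.36, Mmp14 -0.42) and 1 higher (Mmp2 1.13). Higher were 3 of 9 genes that cleave propeptides and 2 of 9 receptor genes, and 2 of 15 genes that modify chains were lower. The smallest p were those of Adamts2, which cleaves procollagen ends (1.70 ± 0.48, adjusted p = 0.15), and P4hb (-0.48 ± 0.14, 0.15).

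In the lines 18 collagens had enough counts to be tested and none was called (edgeR; 0.0143% of 14020 genes were called higher and 0 lower). At an unadjusted p under 0.05, 0 were higher and 1 lower, against 3.40% and 3.59% of all genes. DESeq2 called 0 collagens, and of the same 14020 genes it called 35 higher and 11 lower. The median log2 difference of the collagens was -0.33 against -0.03 for all genes. Col6a3, which had the smallest p, was at 0.145, 0.140, 0.460, 0 and 0.496 CPM in KO lines 1 to 5 and 2.34, 0.548, 0.966, 0.886 and 0.475 in WT lines 1 to 5 (-2.04 ± 0.74, adjusted p = 0.71). WT line 5 lay inside the KO range. No collagen separated the line groups, against 0.742% of all genes higher and 0.521% lower.

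The abundant basement membrane chains of the lines were at -0.34 ± 0.17 (Col4a1, adjusted p = 0.72), -0.31 ± 0.18 (Col4a2, 0.72) and 0.34 ± 0.33 (Col18a1, 0.81). Col15a1 was at -0.80 ± 0.50 and Col8a1, a chain of vessel walls and cornea, at 0.94 ± 0.61. Col1a1 was at -0.39 ± 0.65 (0.90), Col6a1 at 0.46 ± 0.57 (0.86) and Col7a1 at -0.41 ± 0.92 (0.93). WT line 3 was the highest line for Col1a1, Col7a1, Col12a1 (9.25 CPM) and Col16a1 (37.6 CPM). Without it Col1a1 was at 0.65 and Col7a1 at 0.49. It was also the line of lowest summed epithelial marker level, 7407 CPM, and its part was not tested.

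The difference between the knockout effects in tumors and in lines was tested as an interaction. None of 39 collagens was called by edgeR, and 0 of 18662 genes were called in either direction. At an unadjusted p under 0.05, 9 collagens were higher and 3 lower, against 981 and 559 of the 18662 genes (8.25% in either direction). Among the 9 higher were Col1a2, Col5a2 and Col5a3. These held 0, 3 and 0 reads in the KO lines and 75, 25 and 37 in the WT lines, so they rest on few reads too. DESeq2 called 0 collagens, and of the same 18662 genes it called 49 higher and 18 lower. Col4a4 (-3.26 ± 0.91, adjusted p = 0.43) and Col4a3 (-3.47 ± 1.02, 0.43) had the smallest p, followed by Col1a2, for which no fold is given because it had no count in KO lines. The line side of these rests on few reads, 19 (WT) and 64 (KO) for Col4a4 and 7 and 32 for Col4a3. Neither had enough counts to be tested within the lines. For Col1a2 the WT lines held 75 reads, nearly all in WT line 3. Col4a1 was at 0.63 ± 0.23 (0.48) and Col11a1 at 2.84 ± 1.05 (0.48).

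The level of 3 collagens was set against the mean log2 CPM of the fibroblast and the epithelial markers, over the 12 tumors and over the 10 lines, 12 relations in all. None passed after Benjamini-Hochberg adjustment. In tumors Col1a1 had Pearson r = 0.704 with the fibroblast markers (permutation p = 0.0123, adjusted 0.148) and Spearman rho = 0.538 (permutation p = 0.0748, adjusted 0.449). Without the 2 tumors farthest from the median of the markers, KO tumors 2 and 4, r was 0.733, and within the 8 KO tumors r was 0.775 and rho 0.310. In lines, the r of Col1a1 with the fibroblast markers was 0.621 (permutation p = 0.0544) and 0.259 without WT line 3 and KO line 3, so that it rests on those lines. Col4a1 had r = 0.494 (permutation p = 0.105, adjusted 0.419) with the fibroblast markers in tumors. The r of Col17a1 with the epithelial markers in tumors was -0.299 (permutation p = 0.342, adjusted 0.809).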

How the data were processed

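The deposited values are raw counts per gene (whole reads, not normalized), made by the authors from 75-base single-end stranded libraries; per the submitters' processing notes bcl2fastq 1.9.0, Trim Galore, STAR and mm10 were used, and the strand setting of the counting is not given in the sources used here. Gene IDs were matched to GENCODE vM21 without their version (53237 of 53342). The members and gene lists were chosen with earlier results of these data known. Total counts per library were 24547650 to 31118113, and limits from 3 counts cover counting error only.

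Counts were tested with edgeR 4.0.16 (robust quasi-likelihood fit, TMM factors, filterByExpr by group, R 4.3.3), within lines, within tumors, and over all 4 groups for tumors against lines and the interaction. Called means a Benjamini-Hochberg adjusted p under 0.05 over all genes tested. The scripts were tested on simulated data. Levels are CPM, and log2 CPM used a prior count of 2. Correlations used 100000 permutations (two-sided). Replicates are separate animals or lines as labelled. Named with folds were Col1a1, Col1a2, Col3a1, Col4a1, Col4a2, Col6a1, Col7a1 and Col17a1, then called members (up to 10 per direction) or, where fewer than 5 were called, the 5 of smallest p, and up to 4 genes per other list; other members were named after their values were seen.

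Libraries of 1 animal are paired by the labels. The correlations of their deviations from the group means were 0.297, 0.137 and 0.314 in WT and 0.0758 and -0.00741 in KO. Alternatives were DESeq2 1.42.0, limma-voom 3.58.1, RLE and upper-quartile factors, other filters, animal blocks, marker covariates and leaving out each library. Other cell lists (macrophage, leukocyte, mesothelium, adipocyte, Schwann, cartilage) were tested as context.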

Additional observations from a re-analysis of the deposited data

Results flagged for a closer look

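Among 65 sets of libraries (a named collagen in 1 group, mean of at least 1 CPM), 7 held a library far from the others. By chance about 1 in 20 sets is marked in this way. KO tumor 2 was low for 3 genes: Col5a2 at 123 CPM against 334 to 473 in the other KO tumors, Col8a1 at 37.4 against 105 to 186, and Col6a4 at 0 against 1.06 to 7.61. It was also the KO tumor of lowest summed fibrillar level (2362 CPM) and lowest fibroblast marker mean (4.39 log2 CPM). The part of that in these values was not tested.

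The other 4 came from 4 libraries or groups. Col6a1 was at 2.16 CPM in KO line 5 against 20.3 to 30.5 in the other KO lines. Col8a1 was at 16.5 CPM in KO line 2 against 4.76 to 6.56. Col7a1 was at 16.8 CPM in WT tumor 2 against 101 to 132 in the other WT tumors. Col13a1 was at 1.08 CPM in WT tumor 4 against 3.92 to 4.78. No collagen of 39 tested showed a called difference between the knockout effects in tumors and in lines.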

How the results depend on the processing

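Of 1999 alternative values of 73 results, 1346 came from leaving out 1 library, and such fits share most of their libraries. Among the 1999, 1913 kept direction and side of the threshold or, for counts of called members, stayed within 1.5 times. Single members can cross the threshold within such a count. Another 18 lost the threshold, 10 gained it, 41 changed sign and 17 were counts that moved by over 1.5 times. The cause of each was not tested. DESeq2 called 4 higher and 1 lower in KO against WT tumors. For KO tumors against KO lines the number lower was 0 under DESeq2, RLE or upper-quartile scaling, the 1 CPM filter and the 2-fold rule, and for WT it was 0 with limma-voom. Leaving out 1 library gave 33 to 35 higher and 0 to 1 lower in KO (0 without KO lines 1, 4 or 5 or KO tumors 1, 2, 5 or 8) and 32 to 33 higher and 0 to 1 lower in WT (0 without WT line 3 or WT tumor 3).

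No value that changed sign was past the threshold in the fit reported. Col4a2 in WT tumors against lines was 0.043 (RLE and DESeq2), 0.075 (upper quartile), 0.0069 (filter at 1 CPM) and 0.053 (paired animals as a replicate block); in that block, which joins both genotypes, Col4a1 was -0.073. In KO against WT tumors, Col1a1 was -0.00035 without a filter; with the acinar covariate, the fibroblast covariate and without the 3 tumors of highest acinar mean, Col1a1 was -0.13, -0.44 and -0.31, Col1a2 -0.037, -0.27 and -0.047, and Col3a1 -0.13, -0.35 and -0.29. Col17a1 was 0.25 with the acinar covariate. With limma-voom, Col1a1 and Col7a1 in lines were 0.076 and 0.22, and the interactions of Col1a1 and Col3a1 were -0.017 and 0.64, or -0.32 and 0.19 with the animal as a random replicate block. The replicate block moved no count by over 1.5 times, and the random block called Col4a1 in KO tumors against lines (0.36, adjusted p = 0.036, limma-voom). Beside the losses of Col4a2 and Col18a1 in the paired animals, no other call changed among the members named with folds in each comparison. Calls of the other members were not followed. The paired animals gave 1 fit for both genotypes, so it cannot match every call of both comparisons.

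Leaving out 1 library gave, in tumors, Col1a1 -0.22 to 0.42, Col3a1 -0.12 to 0.32 and Col17a1 -0.84 to 0.73; in lines, Col1a1 -0.73 to 0.65 and Col7a1 -0.71 to 0.49; for interactions, Col1a1 -0.60 to 0.82, Col3a1 -1.04 to 3.05 and Col17a1 -1.64 to 0.35; and for Col4a2 in WT tumors against lines -0.14 to 0.055. Line values under 1 CPM rest on few reads, and folds against lines all at 0 are bounds set at 3 counts per library. The differences within animals used the prior count instead.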
